A study of Homo sapiens with 6 samples.

Results

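Shared intergenic regions far from genes are stretches of open chromatin that were called in every library of the series and that lie well away from annotated protein-coding and long non-coding RNA (lncRNA) genes. Members were found by merging the peaks of all 6 libraries on chromosomes 1 to 22 and X at an overlap of 1 bp. A merged region was kept if it held a peak from every library, was shorter than 1500 bp, and had its midpoint outside every such gene span and more than 10 kb from every such gene end. The rule kept 5465 regions, out of 37261 regions called in all 6 libraries and 507086 merged regions in all. The calls themselves chose the members, so their presence in every library is no finding. The limits cut through a continuum. The 3 members nearest the distance limit lay 10.002, 10.002 and 10.005 kb from a gene end, and the 3 regions nearest on the other side lay at 9.998, 9.988 and 9.983 kb. The longest members measured 1495, 1489 and 1485 bp, and the 3 shortest regions left out for length alone measured 1521, 1554 and 1567 bp.

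The libraries came from NCI-H1703, an established human lung squamous cell carcinoma line, assayed by ATAC-seq, in which a transposase inserts sequencing adapters into accessible DNA. In 3 libraries the lncRNA DLGAP1-AS2 had been silenced, and the other 3 came from control cells. The titles mark the silenced libraries as ASO and the controls as NC. The labels give no dose or time for the silencing, and they do not say whether replicates were separate cultures, so p-values measure only the spread between these samples. The lists hold no RNA measure, so the degree of silencing was not analysed here.

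Open chromatin far from genes is known to include enhancers, which bind transcription factors and act on promoters at a distance, and insulators, where CTCF helps to fold the chromosome into loops. It also holds short genes outside the protein-coding and lncRNA classes. Transfer RNA (tRNA) genes and the U6 small nuclear RNA (snRNA) genes are transcribed by RNA polymerase III, and most other spliceosomal snRNA genes by RNA polymerase II. Such genes keep a nucleosome-poor start site when active.

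MicroRNA (miRNA) hairpins are another kind of short gene, and some lie at or near members. Of 1562 hairpins in the RefSeq table, 16 lay within 5 kb of a member, 4 within 500 bp, and 1 overlapped a member. The mature sequences of those 4 are given, 5′ to 3′, because they name the transcript lying at or beside an open region. Capitals mark the seed, bases 2 to 8, with which a miRNA pairs to its targets.
MIR6077: gGGAAGAGcuguacggccuuc
MIR193A, 5p arm: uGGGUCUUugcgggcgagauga
MIR193A, 3p arm: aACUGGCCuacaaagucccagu
MIR759: gCAGAGUGcaaacaauuuugac
MIR7153, 5p arm: uGAGAACUgacaaaugugguagg
MIR7153, 3p arm: cACCAUGGacgguuuacc
All 6 seeds differ. In GRCh38.p14, the MIR6077 hairpin lies at chr1:148388282-148388363 on the plus strand, MIR193A at chr17:31559996-31560083 on the plus strand, MIR759 at chr13:52810050-52810140 on the plus strand and MIR7153 at chr18:11654885-11654941 on the minus strand.

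The values come from the authors' peak lists. Height is the pileup of fragments over the peak, and fold enrichment is that pileup over the local background. Relative depth differed between libraries: the background coverage computed from the lists was 0.237 in silenced replicate 3 and 0.369 to 0.464 in the other 5, and the lists held 91282 (control replicate 2) to 170747 peaks. Heights are printed as deposited and follow depth, so a difference in height between groups is no test; groups were tested on ranks within a list. As a check of the cell label, a peak midpoint within 1 kb of a gene end was sought for fixed marker genes. Of 5 squamous markers only SOX2 had one in all 6 libraries, while TP63 had one in 4, DSG3 in 2, and KRT5 and KRT14 in 1 each. Alveolar and adenocarcinoma markers were called in all 6 libraries for 3 of 4 genes, including NKX2-1. The same held for 3 of 6 mesenchymal, 0 of 4 endothelial and 1 of 5 leukocyte markers. The squamous label thus rests here on SOX2 among these genes, and accessibility at a gene end is not its expression.

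The members were short and modest in height. Their merged length had a median of 506 bp, with quartiles of 392 and 635 bp. Median heights were 11, 12 and 7 in silenced replicates 1 to 3 and 11, 13 and 12 in control replicates 1 to 3. Silenced replicate 3, the library with the lowest background coverage, was the lowest of all. Median fold enrichments were 6.79, 7.32 and 5.66 in the silenced libraries and 7.23, 7.5 and 7.29 in the controls. Heights reached 411 to 428 at the top and went down to 2 or 3 in each library. A height under 4 in at least 1 library was found for 919 members (16.8%), against 3.19% of the shared regions at gene ends. For shared regions inside a gene and more than 10 kb from its ends it was 15.5%. A false discovery rate (FDR) of at most 1e-05 in every library was kept by 2123 members (38.8%). It was kept by 38.5% of those regions inside genes, 71.4% of those at gene ends and 19365 of all 37261 shared regions.

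Compared with other shared regions under the same length limit, the members stood well below gene ends and level with the inside of genes. The comparison used 12307 regions with a midpoint within 1 kb of a gene end and 8316 regions inside a gene and more than 10 kb from its ends. When all 37261 shared regions were ranked by fold enrichment within each list, the median member stood at percentile 40.5, 41.3 and 41.5 in the silenced libraries and 41.2, 42.2 and 41.3 in the controls. Gene-end regions stood at 67.3 to 71.6. The difference was −29.1 ± 1.81 percentile points (SD, n = 6 libraries), negative in 6 of 6 libraries and ranging from −31.1 to −25.8. Against gene-body regions the difference was 0.675 ± 0.604 points (SD, n = 6), from 0 to 1.5, and its sign turned when height (−1.79) or p-value (−0.194) was ranked or the distance limit was 50 kb (−0.967). No p is given for either difference, since the members were chosen on calls from the same lists.

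**Figure D1:**
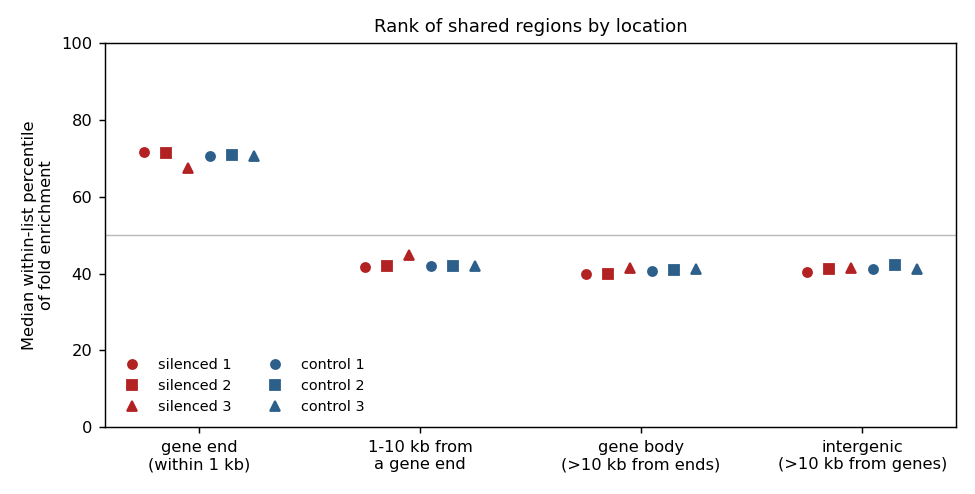
Median within-list percentile of fold enrichment (vertical axis, percent of the 37261 shared regions) for 4 locations of shared regions, with 1 point per library coloured by group. Gene ends stand near 70 in all 6 libraries, while intergenic members and gene-body regions lie together near 41.

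Other measures placed the members beside gene-body regions as well. The ratio of the highest to the lowest fold enrichment of a region over the 6 libraries had a median of 1.82 for members, 1.80 for gene-body regions and 1.55 for gene ends. Among the 4974 members (91.0%) with exactly 1 peak in each library, the 6 midpoints spanned a median of 95 bp, against 97 bp in gene bodies and 112 bp at gene ends. Member peaks had median lengths of 296 to 338 bp in the 6 lists, gene-body peaks 297 to 335 bp, and gene-end peaks 433 to 588 bp. Intergenic members were thus as narrow and as sharply placed as open regions deep inside genes. These numbers describe the lists and carry no test.

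Sharing was rare far from genes. Of 136756 merged intergenic regions far from genes, 4.0% had a peak in all 6 libraries and 79.0% in only 1. The share called in all 6 was 4.34% inside genes and 32.6% at gene ends. Members grew scarcer with distance. Their median distance to the nearest protein-coding or lncRNA gene end was 27.4 kb, with quartiles of 15.9 and 52.5 kb, and 499 members lay more than 100 kb away. The density was 10.5 members per Mb of intergenic sequence between 10 and 20 kb from a gene end, 7.16 between 20 and 50 kb, 4.73 between 50 and 100 kb, 2.53 between 100 and 200 kb and 1.34 between 200 and 500 kb. Regions called in a single library thinned out less over the same bins, from 143 to 68.2 per Mb. The share of intergenic regions called in all 6 went from 5.50% in the nearest bin to 1.69% between 200 and 500 kb, and the members' median height from 12 to 7.5. Beyond 500 kb, a bin of 165 Mb that takes in the gene-free stretches around centromeres, there were 9 members.

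**Figure D2:**
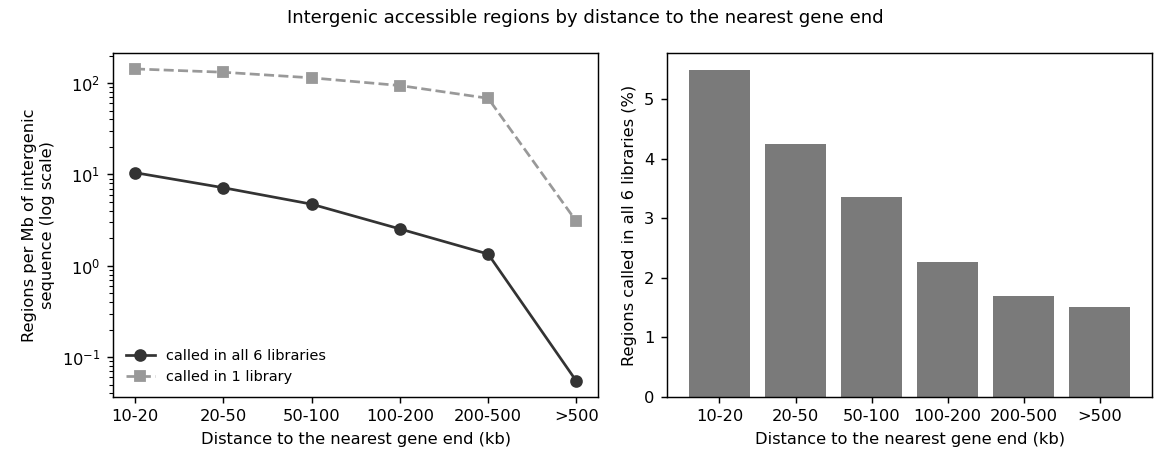
Left, regions per Mb of intergenic sequence (log axis) by distance to the nearest gene end in kb, for regions called in all 6 libraries and in 1 library; right, the percent of intergenic regions in each bin called in all 6. The members' line falls from 10.5 to 1.34 per Mb between the nearest bin and 200 to 500 kb, the single-library line from 143 to 68.2, and the bars from 5.50% to 1.69%.

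The farthest members were few and of ordinary height with one exception. The farthest lay 1203.8 kb from a gene end, at chr6:60338716-60339022, and overlapped the pseudogene PRIM2BP. Its heights were 5, 8 and 8 in the silenced libraries and 5, 11 and 4 in the controls. The next, at chr17:25919969-25920470, had heights of 18, 18, 17 and 16, 12, 20 in the same order. The last of the 3, at chr20:28602332-28603304, overlapped the pseudogene FRG1CP and stood higher, at 40, 47, 28 and 35, 41, 39. By chromosome, density ran from 2.71 members per Mb of intergenic sequence on chromosome 21 to 10.7 on chromosome 17. Gene-free stretches around centromeres count in that sequence. The most members were on chromosomes 5 (472), 1 (462) and 6 (453). Chromosome 5 also had the most single-library regions per Mb, 169 beside 100 over all chromosomes. Of its intergenic regions, 3.25% were called in all 6 libraries, beside 4.0% over all chromosomes.

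Most members, 5001 of 5465 (91.5%), overlapped no other annotated gene of any class. A tRNA gene was overlapped by 83 (1.52%), a pseudogene by 294, of which 286 held none of the other classes named here, an antigen receptor locus or one of its gene segments by 82, an snRNA gene by 8 and a small nucleolar RNA gene by 2. The tRNA genes stood out by how often their regions were shared. Of 108 intergenic regions with a tRNA gene, 83 (76.9%) were called in all 6 libraries, and of 13 with an snRNA gene, 8 (61.5%) were. For pseudogenes the share was 6.60%, and for all intergenic regions far from genes it was 4.0%. Seen from the genes, 85 of the 175 tRNA genes far from other genes (48.6%) had a peak in all 6 lists and 59 (33.7%) in none. Of the 268 tRNA genes nearer to other genes, 146 (54.5%) were called in all 6.

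The tRNA members carried 89 tRNA genes of 19 amino acid classes, led by alanine with 11 genes, serine with 8, and lysine, leucine and threonine with 7 each. Chromosome 6 held 47 of the 83, of which 46 lay between 26 and 29 Mb, the stretch that also carries the large histone gene cluster. Another 11 were on chromosome 1. Median heights over the 83 were 25, 23 and 15 in the silenced libraries and 28, 28 and 28 in the controls. Members without any other gene had medians of 10, 12 and 7 and of 11, 13 and 11. The tRNA members were thus the higher set in each library. Single tRNA members spanned heights of 3 to 127 over the libraries.

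Height and rank picked out different tRNA members. The tallest, with the glutamine tRNA gene TRQ-TTG1-1, ranked lower and had heights of 103, 111 and 67 in the silenced libraries and 120, 127 and 89 in the controls. The 3 with the highest mean rank were lower in height. The member with TRP-CGG2-1, a proline tRNA gene, lay at chr6:27091676-27092364 and had heights of 50, 50 and 27 in the silenced libraries and 43, 53 and 54 in the controls. TRK-TTT7-1, a lysine tRNA gene, had heights of 53, 60 and 27 against 61, 71 and 68 at chr6:28747579-28748224. TRT-TGT2-1, a threonine tRNA gene on chromosome 1, had heights of 40, 63 and 21 against 59, 63 and 56. Silenced replicate 3 was lowest in height at all 3 genes. By rank, the difference at TRK-TTT7-1 (silenced minus control, on the normal-score scale explained with the group comparison) was −0.38 (SE 0.19; limma unadjusted p 0.0676, adjusted 0.963).

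The other small RNA genes under members are mostly parts of the splicing machinery. On chromosome 1, the variant U1 snRNA genes RNVU1-31, RNVU1-8, RNVU1-7 and RNVU1-3 each lay in a member. RNVU1-7 was the strongest of them, with heights of 106, 104 and 68 in the silenced libraries and 108, 132 and 106 in the controls. The member with MIR6077, at chr1:148387897-148389139, also held RNVU1-2, which RefSeq does not class as an snRNA gene. That member had heights of 99, 96, 65 and 105, 113, 100. RNU5B-1, a gene of the U5 snRNA, had heights of 81, 69, 33 and 63, 86, 80 on chromosome 15. The U6 genes RNU6-7 and RNU6-8 lay in neighbouring members on chromosome 14, with heights of 20, 19, 9 and 21, 22, 28 for the first and 33, 46, 11 and 32, 51, 30 for the second. RNY5, a polymerase III gene for a Y RNA, lay in a member on chromosome 7 with heights of 36, 27, 25 and 37, 33, 25. SNORD3B-2 and SNORD3A are genes of the U3 small nucleolar RNA, which helps to process ribosomal RNA. SNORD3B-2 had heights of 29, 37, 15 and 37, 32, 29, and SNORD3A only 4, 6, 7 and 8, 13, 6. U1, U6 and U3 genes have near-identical copies, and how the authors treated reads that match several copies is not given in the sources used here.

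The members beside the other miRNA hairpins were of ordinary size. The member 456 bp from MIR193A had heights of 14, 10 and 12 in the silenced libraries and 14, 19 and 18 in the controls. The member 409 bp from MIR759 had heights of 8, 15, 7 and 9, 11, 11, and the member 227 bp from MIR7153 had 21, 17, 9 and 16, 16, 18. Compared with the MIR6077 region, all 3 were several times lower in every library.

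The strongest members by mean rank of fold enrichment were isolated sites of several kinds. The highest of all, at chr17:22521268-22521560, had heights of 411, 411 and 428 in the silenced libraries and 420, 414 and 418 in the controls. Its height did not follow depth. Relative to its own mean over the libraries it stood at 1.03 in silenced replicate 3, where the typical member stood at 0.667. The next, at chr17:43251570-43251869, overlapped the snRNA gene LOC124904138 and had heights of 135, 133, 88 and 141, 146, 130. The region ranked after it, at chr21:8219736-8220273 and beside the ribosomal RNA gene RNA45SN2, had 69, 93, 64 and 55, 81, 85. At this last site silenced replicate 3 was not the lowest. The first site lies in a gene-poor stretch, 817 and 4773 kb from the protein-coding genes on its 2 sides. Whether reads that match several copies of a sequence add to the height of these 3 sites was not tested.

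The other 3 of the 6 strongest lay between ordinary genes. The member at chr2:2613201-2613951, between MYT1L, which encodes a neuronal zinc finger factor, and EIPR1, had heights of 134, 161, 107 and 132, 173, 166. At chr12:13255708-13256311, 36.1 kb from EMP1, an epithelial membrane protein gene, heights were 88, 101, 64 and 99, 92, 94. At chr2:44044154-44044765, 48.2 kb from LRPPRC, whose protein binds mitochondrial RNA, they were 80, 85, 53 and 79, 89, 79. All 3 were lowest in silenced replicate 3. Height and fold enrichment did not always go together. The 3 members with the lowest mean rank all lay near 9 Mb on chromosome 21 (chr21:8990073-8990639, chr21:8993846-8994771 and chr21:8999119-8999643), with heights of 47 to 100 but fold enrichments of only 1.64 to 2.27. They were the only ones under a fold of 3 among the 142 members with a median height of at least 50.

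**Figure D3:**
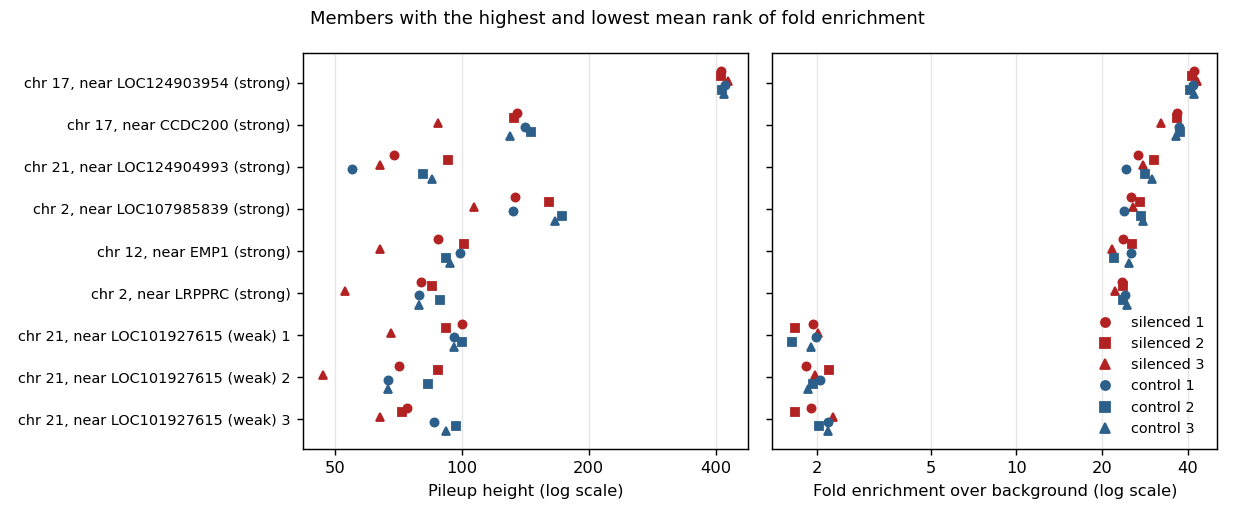
Height (left, log axis) and fold enrichment (right, log axis) of the 6 strongest and 3 weakest members by mean rank, with 1 point per library coloured by group. The strongest member sits at heights of 411 to 428 in all libraries, and the weakest 3 combine heights of 47 to 100 with folds of 1.64 to 2.27.

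Members were mostly solitary, and the groups with 13 and 9 members were rich in tRNA genes. When midpoints within 12500 bp were chained, 4138 members stood alone, 486 pairs formed, and 105 clusters of at least 3 held 355 members. A tRNA member was present in 11 of the 105. The largest cluster, chr6:28710492-28772037 between SCAND3 and TRIM27, had 13 members over 61.5 kb, of which 9 carried a tRNA gene. Its heights ran from 5 to 71. The next, chr6:28789575-28823968, had 9 members, 8 with a tRNA gene, and one at chr6:27532049-27553744 between ZNF184 and the histone gene H2BC13, had 6 members, 5 with a tRNA gene. There, 4 of the 5 tRNA members held serine tRNA genes (TRS-AGA3-1, TRS-AGA1-1, TRS-TGA2-1 and TRS-AGA4-1). Within these clusters most open sites therefore coincided with a tRNA gene.

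**Figure D4:**
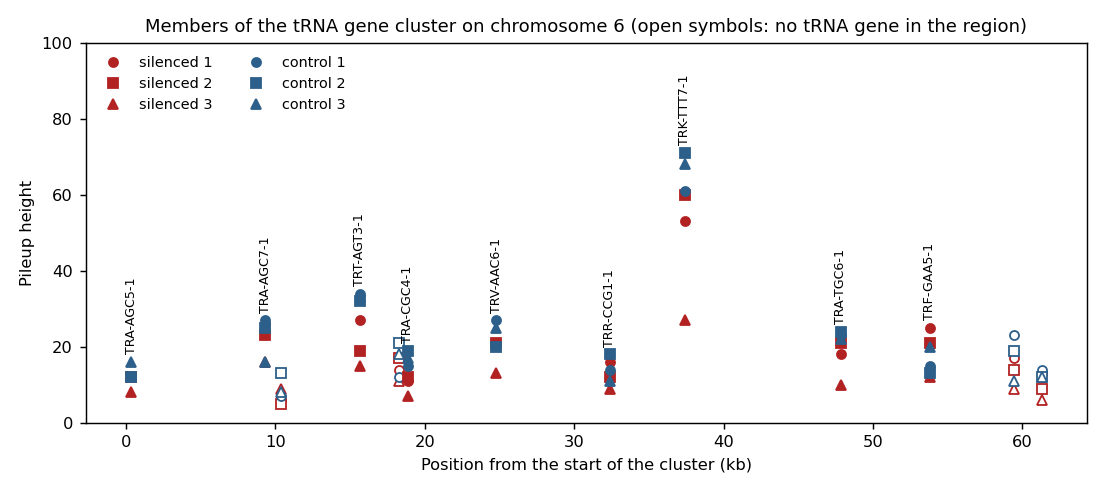
Height of the 13 members of the largest cluster against their position in kb from its start, with 1 point per library coloured by group and the 9 members with a tRNA gene marked. The tallest member, TRK-TTT7-1 at 37.4 kb, reaches 53 to 71 in the 5 libraries other than silenced replicate 3, where it is 27.

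The other cluster with 6 members, and those with 5, held no tRNA gene. At chr4:156665992-156695507, 65.2 kb from PDGFC, a platelet-derived growth factor gene, 6 members ranged in height from 3 to 89. The tallest of them, at chr4:156691678-156692668, had heights of 75, 77 and 39 in the silenced libraries and 76, 89 and 72 in the controls. At chr5:1633763-1654418, 110 kb from LPCAT1, a lysophospholipid acyltransferase gene, 5 members ranged from 10 to 104. The tallest there, at chr5:1641538-1641935, had 90, 104, 57 and 77, 102, 100. Another cluster also had 5 members and is not described. The 2 described clusters mixed strong and weak sites, over spans of 29.5 and 20.7 kb.

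Each member was also assigned to its nearest protein-coding gene, which names a neighbour and not a target. In all, 3298 of 19970 protein-coding genes (16.5%) were nearest to at least 1 member, at a median of 46.0 kb. Members were spread over many neighbours. LOC124901178 had 20, the cadherin gene CDH9 19, OR4E1 and ZNF184 14 each, CITED2 and EFNA5 13 each, PDGFC, SCAND3 and TRIM27 12 each, and HAPSTR1 and PRSS1 10 each. Of ZNF184's 14, 12 carried a tRNA gene. OR4E1 and PRSS1 lie beside the T cell receptor loci.

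For gene lists fitting the study, counts are given beside those for all genes, with no test. Of 22 targets of YAP, the transcription co-activator at the end of the Hippo pathway, 10 (45.5%) were nearest to a member. The 35 members amounted to 9.85 per Mb of the far sequence nearest to those genes, against 5.06 for all genes. The 5.06 is lowered by the 165 Mb more than 500 kb from a gene end, which held only 9 members. CRIM1, a membrane protein that binds bone morphogenetic proteins, had 7, the growth factor gene TGFB2 had 6, and IGFBP3, which binds insulin-like growth factors, and NT5E, which makes adenosine outside the cell, had 5 each. Many of these members were distant. The 35 lay at a median of 125 kb from their gene, against 46.0 kb for all genes. Those of CRIM1 lay 33.4 to 1254 kb away and those of IGFBP3 211 to 431 kb. One TGFB2 member stood high above its neighbours. At chr1:218496557-218497001, 52.2 kb from the gene, its heights were 78, 75 and 67 in the silenced libraries and 76, 99 and 94 in the controls, while the other 5 TGFB2 members stayed between 2 and 19. CCN1, a secreted matrix protein gene and a classical YAP target, had 1 member, with heights of 12, 22, 10 and 17, 22, 22. Of 20 genes of the Hippo pathway and its TEAD factors, only TEAD1 and VGLL1 had a member, with heights of 8, 8, 3 and 7, 8, 8 for TEAD1 and 25, 30, 15 and 28, 31, 15 for VGLL1. That made 2.05 members per Mb.

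Of 14 genes for AP-1, a dimeric factor that often occupies enhancers together with TEAD, only FOS was nearest to a member. It had 2 members, which made 9.17 per Mb, since the far sequence nearest to the AP-1 genes was only 0.218 Mb. The one 19.6 kb away, at chr14:75258685-75259684, was among the tall ones, with heights of 94, 96 and 53 in the silenced libraries and 101, 114 and 108 in the controls. The one at 48.4 kb had 12, 8, 5 and 12, 14, 16. At the first site the score difference, silenced minus control, was −0.34 (SE 0.21; limma unadjusted p 0.118), and −0.22 without control replicate 3.

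Genes that make phosphatidic acid, a lipid precursor and signal, were nearest to 7 members, through 4 of 20 genes. GPAM, the mitochondrial enzyme that starts glycerolipid synthesis, had 3, the diacylglycerol kinase gene DGKB 2, and DGKG and GPAT3 1 each. The nearest GPAM member, at 12.3 kb, had heights of 13, 14, 10 and 13, 21, 13. The density was 6.25 per Mb. Growth factor and receptor genes were nearest to 19 members through 12 of 24 genes, or 6.19 per Mb, led by IGF1R with 4 and EGFR with 3. The member 11.5 kb from PDGFRA, a receptor tyrosine kinase gene, had heights of 43, 60, 29 and 55, 49, 49.

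Lineage and developmental genes had members at lower density. Squamous lineage genes were nearest to 9 members through 5 of 14 genes, or 2.85 per Mb, and 4 of the 9 lay 876 to 915 kb from TFAP2A. The single SOX2 member, 67.9 kb from the gene of this squamous lineage factor, was low, at 9, 8, 5 and 9, 9, 10. Developmental transcription factor genes were nearest to 48 members through 21 of 40 genes, or 3.06 per Mb. These genes border large gene-poor stretches, which amounted to 15.7 Mb for the 40. GLI2, a factor of Hedgehog signalling, NR2F1 and SOX5 led with 5 members each. TFAP2A, TFAP2C and SOX2 belong to both lists.

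Silencing of DLGAP1-AS2 went with no member passing the test. Fold enrichment was turned into normal scores of its rank within each list, and limma was fitted to all 37261 shared regions. With adjusted p under 0.05, 0 of 5465 members were called (beside 0% of all regions), and the smallest Benjamini-Hochberg adjusted p of a member was 0.963. At an unadjusted limma p under 0.05, 122 members (2.23%) were higher in the silenced libraries, beside 1.98% of all regions, and 183 (3.35%) were lower, beside 2.7%. The direction depended on the value ranked: when height was ranked, 142 members (2.6%) were higher, beside 2%, and 87 (1.59%) were lower, beside 2.33%. All 3 silenced scores lay above all 3 control scores for 250 members (4.57%), beside 5.39%, and below them for 301 (5.51%), beside 4.78%. The median difference, silenced minus control, was −0.015 for members and 0.0067 for all regions on the score scale. A typical member had a standard error (SE) of 0.36 and within-group SDs of 0.387 (silenced) and 0.354 (control), so most differences lay inside the spread of the replicates.

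The members with the smallest p are described for each direction. On the silenced side, chr13:87124006-87124440, in a gene-poor stretch 73.0 kb from a gene end, had heights of 20, 24 and 16 against 17, 13 and 10. The score difference was 0.92 (SE 0.24; limma unadjusted p 0.00105, adjusted 0.963). A member at chr9:88173366-88173818, 35.1 kb from SPATA31C2, had heights of 9, 12, 7 against 6, 5, 3 and a difference of 1.55 (SE 0.42). Near CDKN3, a cell cycle phosphatase gene, chr14:54328944-54329517 had heights of 16, 14, 15 against 4, 8, 14 and a difference of 1.29 (SE 0.38). At chr3:34106784-34107290 heights were 5, 12, 6 against 3, 6, 3, with a difference of 1.61 (SE 0.48). The scores of the groups were apart at all 4 sites, which the choice by smallest p favours. Without control replicate 1 the difference near CDKN3 was 0.82.

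On the control side, chr11:18853175-18853690, 60.7 kb from the phosphatase gene PTPN5, had heights of 3, 5 and 3 in the silenced libraries and 9, 11 and 11 in the controls. The score difference was −1.62 (SE 0.40; limma unadjusted p 0.00075, adjusted 0.963). At chr5:82641340-82642043 heights were 4, 3, 3 against 12, 19, 6, with a difference of −1.80 (SE 0.47). The member at chr19:5547750-5548322, 10.1 kb from TINCR, had 3, 4, 2 against 8, 9, 7 and a difference of −1.70 (SE 0.45). Near the zinc finger gene ZNF287, chr17:16589047-16589880 had 13, 18, 4 against 24, 28, 18 and a difference of −1.12 (SE 0.30). The scores of the groups were apart at all 4 sites, which the choice by smallest p again favours. At the first 3 the silenced heights were 2 to 5, close to the lowest in any list. None of the 8 passed the adjusted test.

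**Figure D5:**
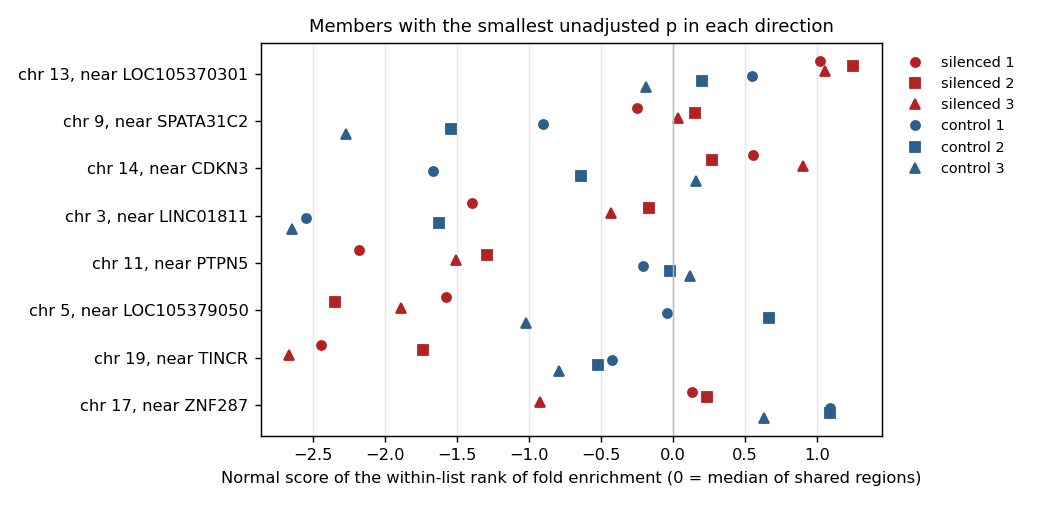
Normal score of the within-list rank of fold enrichment (a score without unit) for the 4 members with the smallest p on each side, with 1 point per library coloured by group. The groups are apart by 0.92 to 1.61 at the members higher in silenced libraries and by −1.80 to −1.12 at those lower, and no adjusted limma p is below 0.963.

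Of the 83 tRNA members, 3 (3.61%) had an unadjusted limma p under 0.05, beside 4.68% of all regions, and none passed the adjusted test. Their median difference was 0.0043, and −0.042 when height was ranked. The 3 are named because they are few, after their values were seen. The member with TRT-AGT4-1, a threonine tRNA gene, had heights of 21, 21 and 16 in the silenced libraries and 35, 28 and 37 in the controls. Its score difference was −0.67 (SE 0.24; limma unadjusted p 0.0126, adjusted 0.963), and it was −0.32 when height was ranked and −0.38 with p-values. The member with TRV-AAC3-1, a valine tRNA gene, had heights of 20, 15, 5 and 20, 24, 28 and a difference of −0.84 (SE 0.30; limma unadjusted p 0.012, adjusted 0.963), which was −0.48 without silenced replicate 3. The member with TRG-CCC1-2, a glycine tRNA gene, went the other way, with heights of 7, 13, 8 and 8, 7, 5 and a difference of 0.87 (SE 0.37; limma unadjusted p 0.0309, adjusted 0.963).

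A measure that does not depend on the all-library rule is the share of a library's own peaks that are intergenic and far from genes. It was 24.2%, 24.5% and 22.1% in the silenced libraries and 24.4%, 18.0% and 24.1% in the controls. The Wilson 95% interval of the lowest share ran from 17.8% to 18.3%; such intervals cover counting error only. Control replicate 2, which has the shortest list, was the lowest and stood apart from the other 5. Its lowest peak height was 3, where the other 5 lists went down to 2. The group means were 23.6 ± 1.32% and 22.2 ± 3.58% (SD, n = 3 each), and the difference of 1.43 points had a two-sided exact permutation p of 0.6, where 0.1 is the smallest that 3 against 3 can give. Without control replicate 2 the difference was −0.633 (exact permutation p 0.9). The difference also turned negative among peaks with an FDR of at most 1e-05 (−0.510, exact permutation p 0.3) and among those with a height of at least 4 (−0.688, exact permutation p 0.7). Under these 2 filters the control SD was 0.108 and 0.0699, so control replicate 2 no longer stood apart from the other controls. The difference without filters was the one led by that library. The difference stayed positive with lists of equal size (1.03, exact permutation p 0.3) and with a distance limit of 50 kb (0.965, exact permutation p 0.5).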

How the data were processed

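ATAC-seq peak lists of 6 NCI-H1703 libraries (3 silenced, 3 control; 150 bp reads) were used. The submitters' processing notes name Trimmomatic 0.36, Bowtie2 2.2.6, Picard 2.8.2, MACS2 2.1.1, bedtools 2.25.0 and GRCh38, without roles or order. Per the file headers, the authors deposited for each peak a fold enrichment (a ratio), a p-value with an FDR, and a pileup signal (height); every deposited p-value was at most 0.00987. Lists were deposited per library. Read totals are unknown, so depth was judged from background coverage, the smallest (height + 1) / fold − 1 in a list.

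Genes came from a RefSeq table of GRCh38.p14. Where a merged region held several peaks of a library, its largest fold, largest height and smallest p-value were used. Ranks of fold enrichment within a list became normal scores, tested with limma 3.58.1 (R 4.3.3) with Benjamini-Hochberg adjustment over 37261 regions, and the script was tested on simulated data. Percentile differences between locations, planned with an exact test, are given without p. Named members were those with the 6 highest and, added later, 3 lowest mean scores, the 4 smallest p per direction, the 5 largest clusters, the 3 farthest, the 3 nearest each limit, the fixed gene lists' members and the genes nearest to most members. Small RNA and tRNA members were added because of their class. Members and lists were chosen with earlier results of these data known. Motif counts and member sequences were not analysed here. Alternatives changed the ranked value, filters, limits, normalization, pairing and libraries.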

Additional observations from a re-analysis of the deposited data

How the results depend on the processing

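No member passed the adjusted limma test under any of the 11 alternatives run (2 other ranked values, the replicate block, strict FDR, quantile normalization, and each library left out). Members with an unadjusted limma p under 0.05 numbered 305 (5.58%, beside 4.68% of all regions) in the reported fit and 229 to 364 in the alternatives that kept all members. With the strict FDR filter they were 116 of 2123 (5.46%, beside 4.42% of all regions kept). The smallest adjusted p of a member was 0.758. The same-numbered libraries did not deviate together in their scores (mean correlation −0.00259). This cannot tell whether same-numbered samples were prepared together, since ranks remove a scale shared by a whole list and the labels do not say. Ranking did not make the libraries alike. Over the members, scores of silenced replicate 3, the library with the lowest background coverage, correlated at 0.651 to 0.663 with the others. Among the other 5 libraries the correlations were 0.723 to 0.736. The group test keeps this difference, and its cause was not tested. With the replicate block, 0 members were called and 317 had an unadjusted p under 0.05, and the far-intergenic share differed by 1.43 points with an exact sign-flip p of 1, where 3 pairs cannot go below 0.25. The gap to gene ends (−29.1 points) kept its sign: it was −43.0 by height, −36.1 by p-value, −33.5 at 50 kb, −21.7 with the strict FDR filter (1e-05 or less in all lists), and −29.7 to −28.7 with a library left out. The gap to gene bodies (0.675) turned to −1.79 by height, −0.194 by p-value and −0.967 at 50 kb, was 1.65 at the strict FDR, and was 0.511 to 0.810 with a library left out. The far-intergenic share difference (1.43) turned to −0.510 at the strict FDR and −0.688 at a height of at least 4. It was 1.03 with lists of equal size and 0.965 at 50 kb, and ran from −0.633 to 2.54 with a library left out. The cause was not tested in any of these. The 5465 members became 1449 at 50 kb, 9301 when only protein-coding genes counted and 2124 at the strict FDR. The 105 clusters became 17 at 5 kb and 228 at 25 kb. None of the 13 rank shifts named singly changed sign under an alternative that kept the region. Most of these shifts were named for their small p, and the replicate block leaves the difference itself unchanged. Where the groups lie fully apart, leaving a library out cannot turn the sign, so the kept signs are no separate evidence. A height under 4 in at least 1 library was found for 919 members.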

Other observations

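Antigen receptor loci, which are rearranged in lymphocytes, or their gene segments were overlapped by 82 members in this carcinoma line. By locus span there were 23 in the immunoglobulin lambda locus, 18 in the T cell receptor beta locus, 17 in the T cell receptor alpha locus, 11 in the immunoglobulin kappa locus, 9 in the immunoglobulin heavy chain locus and 2 in the T cell receptor gamma locus. Their median heights were 9, 10.5 and 6.5 in the silenced libraries and 9, 11.5 and 11 in the controls, near those of members without another gene. Of 556 intergenic regions at such loci, 14.7% were called in all 6 libraries, beside 4.0% of all intergenic regions far from genes. The gene table gives receptor loci and segments a class of their own, so the rule counts them as lying outside genes. Among leukocyte marker genes, SPI1 had a gene-end peak in all 6 libraries and CD3E in 2. The part of other cells in these calls was not tested.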
